A study of Mus musculus with 3 samples.

Results

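The transcripts described here belong to 10 mouse genes that the transcription factor NRF2 is known to control in the antioxidant response: Nqo1, Gclc, Gclm, Hmox1, Txnrd1, Srxn1, Gsr, Slc7a11, G6pdx and Osgin1. The members were listed by gene name, with earlier results of these data known, and no measured value entered the rule. They had 12 probes, out of 26762 probes that could be named to 20284 genes, and 9 of the 10 genes were measured on all 3 arrays, out of 13626 genes in all. Slc7a11 was the member that was not measured. The liver RNA came from c57BL6/J mice that expressed human YAP, the transcriptional coactivator restrained by the Hippo pathway, for 2 days. The 3 groups were wild-type YAP (WT), the 1SA mutant and the 2SA mutant, with 1 array each, and all 3 livers thus carried a human YAP vector. According to the methods, the vector was forced into the liver by hydrodynamic injection into the tail vein of mice that were mainly young adult males, and a hepatocyte-specific promoter drove it. Only a part of the hepatocytes therefore carries YAP, while the array reads RNA of the whole liver, in which fewer cells of a type and less RNA per cell cannot be told apart. The mutants carry serine-to-alanine changes and are described as active forms of YAP. Whether an array held RNA of 1 mouse or of a pool was not given. The labels number the WT liver 2 and give the mutant livers no number.

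NRF2, encoded by Nfe2l2, is kept low by the adaptor KEAP1, which hands it to a ubiquitin ligase. Oxidants and electrophiles modify KEAP1, so that NRF2 accumulates, pairs with a small MAF protein and binds antioxidant response elements in its target genes. In the liver these targets make glutathione, reduce thioredoxin and quinones, supply NADPH, degrade haem and conjugate foreign compounds.

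Intensity was the brightness of a spot on a linear scale after background subtraction. It was divided by the 75th percentile of its array, and the log2 of this scaled intensity was used for differences. The 75th percentile lay at 290.8 for WT, at 275.7 for 1SA and at 319.5 for 2SA, and between 28972 and 30784 probes were well above background. With 1 array per group no test was possible and no difference has an error between livers. The only repeat measure was that of 282 probes spotted several times on each array, from which the SD of a log2 difference was 0.10. A difference beyond 0.21 (2 SD) is called beyond the repeated-spot limit, which covers error between spots only. Each member probe had a single spot per array. Both differences from WT share the WT array and are not independent of each other.

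The antioxidant response element is shown first in the promoters, because it is the sequence through which NRF2 reaches these genes. Windows from 250 bases before to 50 bases after the start site (RefSeq, GRCm38.p6) were at hand for 7 members, with 9 windows in all. The motifs TGACNNNGC and TGAGNNNGC were searched on both strands, and 6 of the 9 windows held at least 1 match, namely a window each of Gclm, Slc7a11, Txnrd1, Srxn1, G6pdx and Osgin1. Of all 32851 windows of the table, 12.4% held TGACNNNGC, 17.6% held TGAGNNNGC and 27.8% held either. The Nqo1 window had no match to these letters. Promoters of Gclc, Gsr and Hmox1 are not shown. Srxn1, the member with the largest differences, had 3 matches, of which both upstream ones are printed, at chr2:152105336-152105404 and at chr2:152105449-152105517 on the plus strand. Osgin1, which stood apart from the others in its order of arrays, lies at chr8:119437018-119437086 on the plus strand. Gclm lies at chr3:122245393-122245461 on the plus strand and the second Txnrd1 window at chr10:82859084-82859152 on the plus strand. G6pdx, which ran opposite to most members, lies at chrX:74428899-74428967 on the minus strand. Each stretch reads 5′ to 3′ on the strand of its gene, and capitals mark the match, which is the reverse complement of the motif everywhere except in the second Srxn1 stretch.
Srxn1 at -158: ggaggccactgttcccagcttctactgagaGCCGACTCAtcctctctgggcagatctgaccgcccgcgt
Srxn1 at -45: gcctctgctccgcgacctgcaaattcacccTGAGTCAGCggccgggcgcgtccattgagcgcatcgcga
Osgin1 at -99: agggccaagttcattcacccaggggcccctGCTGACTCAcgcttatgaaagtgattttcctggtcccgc
Gclm at -134: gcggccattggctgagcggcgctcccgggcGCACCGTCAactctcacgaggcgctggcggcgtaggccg
Txnrd1 at -92: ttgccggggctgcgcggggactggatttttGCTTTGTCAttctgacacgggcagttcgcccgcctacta
G6pdx at -57: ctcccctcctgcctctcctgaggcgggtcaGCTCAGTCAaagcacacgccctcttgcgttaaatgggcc
The number beside each name is the position of the first base of the match relative to the start site. The second Srxn1 match and the Osgin1 match also contain TGAGTCA, the letters bound by AP-1 factors. A match is a description of letters and not evidence of binding.

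Most of the members stood highest on the 1SA array and lowest on the 2SA array. This order (1SA above WT above 2SA) held for 6 of the 9 measured members, Gclc, Gclm, Gsr, Txnrd1, Srxn1 and Nqo1, and for 26.1% of all genes measured. Of these 6, only Srxn1 and Nqo1 differed from WT beyond the repeated-spot limit in both mutants. The opposite order held for G6pdx and Hmox1, and for 20.0% of all genes. Osgin1 was lowest in WT, as were 23.6% of all genes. The median difference of the 9 members was 0.23 in 1SA minus WT, -0.13 in 2SA minus WT and -0.37 in 2SA minus 1SA, beside medians of 0.00, -0.03 and -0.03 over all genes. The hepatocyte markers, a list that holds Alb and Hnf4a, followed the same order in 7 of 10 genes, with medians of 0.09, -0.12 and -0.18. After quantile normalisation, which gives the 3 arrays a common distribution, the order held for 2 of the 10 hepatocyte markers and for the same count of 6 of 9 members. Several of these markers were far brighter than the members (Alb at 10.32 on WT, log2 scaled, beside 6.16 for Gclc). Cps1, at 5.90 on WT, was dimmer than Gclc, and its sign in 1SA minus WT also turned after this step. Whether brightness bears on the counts of markers and members was not tested.

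**Figure D1:**
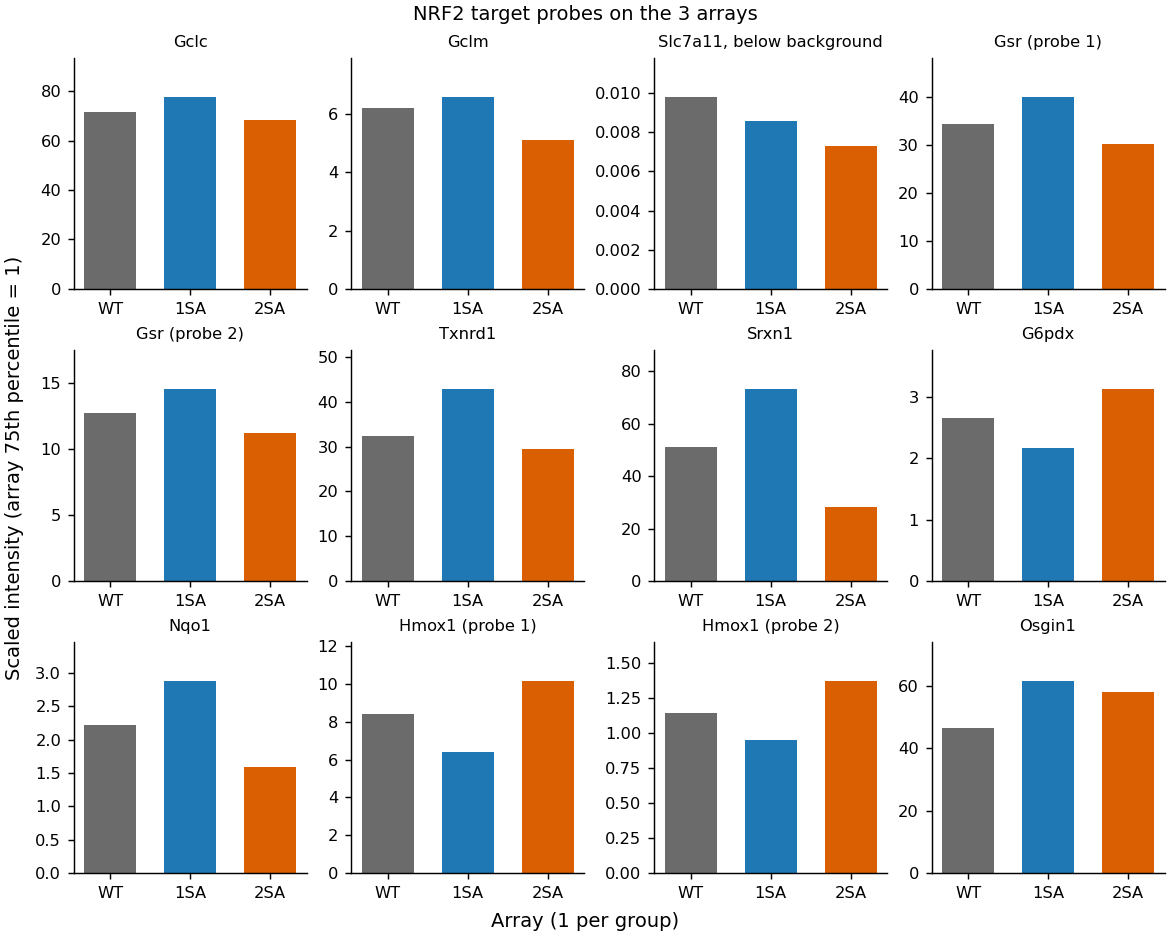
Scaled intensity (linear, array 75th percentile = 1) of the 12 member probes, 1 panel per probe with its own axis from 0, and 1 bar per array without error bars because each group held 1 array. Srxn1 and Nqo1 were lowest on the 2SA array, Hmox1 and G6pdx were highest there, and Slc7a11 was not well above background on any array.

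Few members passed a 1.5-fold difference. In 1SA against WT no member was 1.5-fold higher, beside 3.08% of all genes, and none was 1.5-fold lower, beside 4.67%. In 2SA against WT none was higher, beside 3.79%, and Srxn1 alone was lower, beside 3.02%. In 2SA against 1SA, 1 member was higher (Hmox1), beside 6.99%, and 2 were lower (Srxn1 and Nqo1), beside 4.56%. At 2-fold the single call among members was Srxn1, lower in 2SA than in 1SA, beside 1.12% of all genes. The other 2-fold shares, without a member, were 0.727% higher and 1.14% lower in 1SA against WT, 1.12% higher and 0.543% lower in 2SA against WT, and 2.47% higher in 2SA against 1SA.

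Differences beyond the repeated-spot limit were more common. In 1SA against WT, 5 of 9 members were higher beyond the limit (Gsr, Txnrd1, Srxn1, Nqo1 and Osgin1), beside 16.0% of all genes, and 2 were lower (G6pdx and Hmox1), beside 19.0%. Gsr was within the limit under 3 alternative ways of processing (0.18 to 0.20). In 2SA against WT, 3 were higher (G6pdx, Hmox1 and Osgin1), beside 15.5%, and 3 were lower (Gclm, Srxn1 and Nqo1), beside 19.2%. G6pdx was within the limit under normexp background correction (0.19). In 2SA against 1SA, 2 were higher (G6pdx and Hmox1), beside 21.2%, and 5 were lower (Gclm, Gsr, Txnrd1, Srxn1 and Nqo1), beside 24.0%. Srxn1, Nqo1, Hmox1 and G6pdx lay on opposite sides of WT in 1SA and 2SA, each time beyond the limit, as did 6.78% of all genes. With 9 genes, 1 gene more or less moves a share by a large step.

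**Figure D2:**
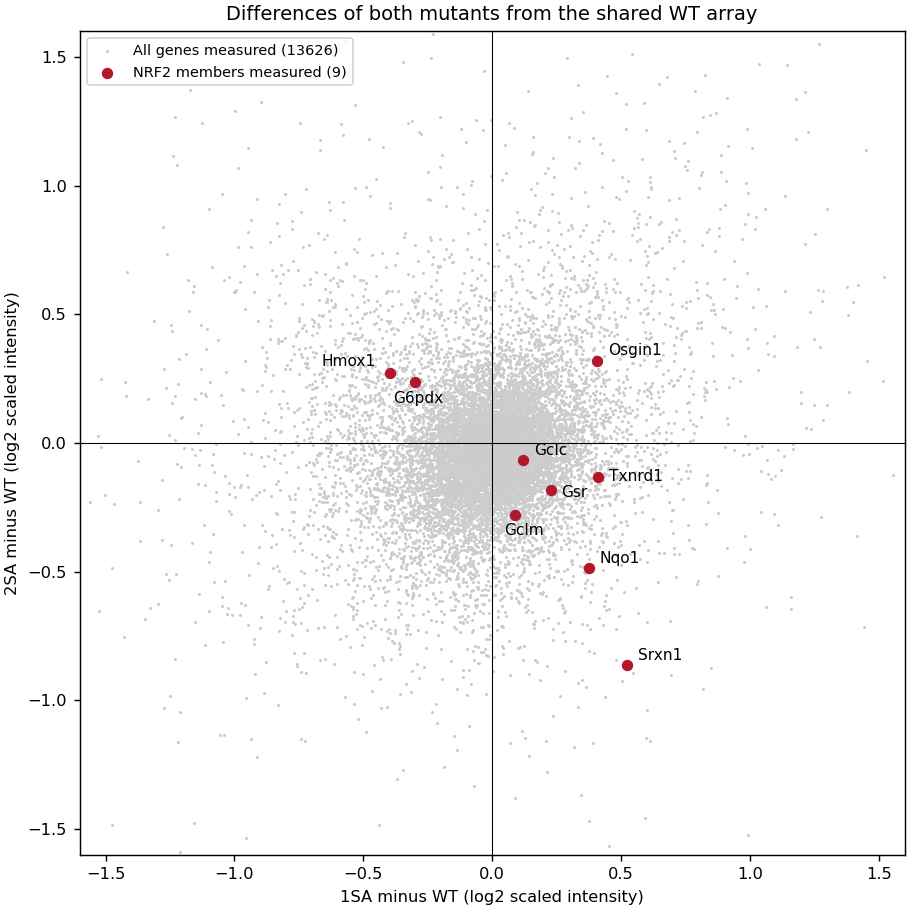
Difference of 1SA from WT (x axis) and of 2SA from WT (y axis), both in log2 scaled intensity, for the 13626 measured genes (grey) and the 9 measured members (red), with 94 genes outside the axes. The WT array enters both axes. The 6 members with the order 1SA above WT above 2SA lie in the lower right part, Hmox1 and G6pdx lie in the upper left, and Osgin1 lies in the upper right.

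Glutathione synthesis starts with glutamate-cysteine ligase, whose catalytic subunit is Gclc and whose modifier subunit is Gclm. The Gclc probe (NM_010295) read 20828.8 on WT, 21472.6 on 1SA and 21833.0 on 2SA, or 6.16, 6.28 and 6.09 on the log2 scaled scale. The order of the raw intensities differs from that of the scaled values because the 2SA array was brighter as a whole. The Gclc differences, 0.12 in 1SA minus WT, -0.07 in 2SA minus WT and -0.19 in 2SA minus 1SA, were all within the repeated-spot limit. The Gclm probe (NM_008129) read 1804.1, 1817.8 and 1632.7 on WT, 1SA and 2SA, or 2.63, 2.72 and 2.35 on the log2 scaled scale. Gclm was close in WT and 1SA, with a difference of 0.09, and lowest in 2SA, with differences of -0.28 from WT and -0.37 from 1SA. The modifier subunit thus passed the spot limit in 2SA, while the catalytic subunit did not.

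Slc7a11 is the cystine carrier subunit of the xCT exchanger, which brings in the cysteine that glutathione synthesis needs. Its probe (NM_011990) read 2.9 on WT, 2.4 on 1SA and 2.3 on 2SA and was not well above background on any of the 3 arrays. No difference between groups was measurable for Slc7a11.

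Gsr, glutathione reductase, returns oxidised glutathione to its reduced form with NADPH. The brighter Gsr probe (NM_010344) read 9987.3 on WT, 11077.3 on 1SA and 9670.3 on 2SA, or 5.10, 5.33 and 4.92 on the log2 scaled scale. Gsr was thus highest in 1SA and lowest in 2SA, with differences of 0.23 in 1SA minus WT, -0.18 in 2SA minus WT and -0.41 in 2SA minus 1SA. The dimmer Gsr probe gave 0.20, -0.18 and -0.38, in the same directions.

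Txnrd1, cytosolic thioredoxin reductase, hands electrons from NADPH to thioredoxin. Its probe (NM_001042523) read 9396.2 on WT, 11837.9 on 1SA and 9405.7 on 2SA, or 5.01, 5.42 and 4.88 on the log2 scaled scale. The value stood out on the 1SA array, with a difference of 0.41 from WT, while 2SA and WT lay within the spot limit of each other at -0.13. The 2SA minus 1SA difference of Txnrd1, -0.54, was just short of 1.5-fold.

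Srxn1, sulfiredoxin, repairs peroxiredoxins that have been over-oxidised and had the largest differences among the members. Its probe (NM_029688) read 14867.5 on WT, 20239.2 on 1SA and 8972.6 on 2SA, or 5.68, 6.20 and 4.81 on the log2 scaled scale. The 3 arrays were well apart, with 1SA highest and 2SA lowest. Srxn1 was 1.44 times the WT level in 1SA (a log2 difference of 0.52) and 0.549 times the WT level in 2SA (-0.86). The 2SA level was 0.383 times the 1SA level (-1.39), the 50th lowest of the 13626 differences, and 1.41% of genes had a difference of larger size. Srxn1 is the gene of the pair of promoter stretches printed above.

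Nqo1 reduces quinones in a single step that avoids reactive semiquinones, and its transcript is often used as a readout of NRF2. Its probe (NM_008706) read 647.2 on WT, 795.4 on 1SA and 507.8 on 2SA, or 1.15, 1.53 and 0.67 on the log2 scaled scale. Nqo1 had the same order as Srxn1, with differences of 0.37 in 1SA minus WT and -0.49 in 2SA minus WT. The 2SA level was 0.551 times the 1SA level (-0.86), the 227th lowest difference of all genes.

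G6pdx, glucose-6-phosphate dehydrogenase, is the entry enzyme of the pentose phosphate pathway and a source of NADPH. Its probe (NM_008062) read 771.4 on WT, 594.6 on 1SA and 999.2 on 2SA, or 1.41, 1.11 and 1.65 on the log2 scaled scale. G6pdx ran opposite to Nqo1 and Srxn1, being lowest in 1SA and highest in 2SA. Its differences were -0.30 in 1SA minus WT, 0.24 in 2SA minus WT and 0.54 in 2SA minus 1SA, the last just short of 1.5-fold.

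Hmox1, haem oxygenase 1, breaks down haem and is used by macrophages as well as by stressed hepatocytes. The brighter Hmox1 probe (NM_010442) read 2452.1 on WT, 1767.2 on 1SA and 3250.6 on 2SA, or 3.08, 2.68 and 3.35 on the log2 scaled scale. Hmox1 was lowest in 1SA and highest in 2SA, with differences of -0.40 in 1SA minus WT and 0.27 in 2SA minus WT. The 2SA level was 1.59 times the 1SA level (0.67). The dimmer Hmox1 probe gave -0.27, 0.27 and 0.53, in the same directions, and the last of these did not reach 1.5-fold.

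Of the 11 measured Kupffer cell and macrophage markers, 2 had the same order as Hmox1, beside 20.0% of all genes. These were the complement genes C1qa and C1qb, with differences of 0.68 and 0.57 in 2SA minus 1SA. In that comparison 5 of the 11 were higher and 6 were lower, from -2.02 to 0.68. The list as a whole did not have this order, with medians of -0.42 in 1SA minus WT, -0.84 in 2SA minus WT and -0.38 in 2SA minus 1SA. Its summed scaled levels were 293.5 for WT, 218.1 for 1SA and 192.4 for 2SA. Red cell markers, which track haem-rich cells, summed to 202.9 on WT, 346.0 on 1SA and 270.0 on 2SA, and all 7 measured genes were higher than WT in both mutants, with Slc4a1 lower in 2SA under normexp background correction. Their part in the Hmox1 values was not tested. Bach1, which encodes the haem-sensing repressor of Hmox1, read 1559.6 on WT, 2627.1 on 1SA and 1530.2 on 2SA, with differences of 0.83 in 1SA minus WT, -0.16 in 2SA minus WT and -0.99 in 2SA minus 1SA. Bach1 was highest on the 1SA array, where Hmox1 was lowest. Between WT and 2SA, Bach1 was within the spot limit, while Hmox1 differed by 0.27. Bach1 also had the order of Srxn1 and Nqo1. Whether Bach1 bears on any member was not tested.

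Osgin1, oxidative stress induced growth inhibitor 1, stood apart from the other members. Its probe (NM_027950) read 13505.7 on WT, 16992.0 on 1SA and 18525.4 on 2SA, or 5.54, 5.95 and 5.86 on the log2 scaled scale. Osgin1 was above WT on both mutant arrays, by 0.41 for 1SA and by 0.32 for 2SA. The difference between the mutants, -0.09, was within the spot limit and turned to 0.05 after quantile normalisation. No other member was above WT on both arrays.

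The regulators of NRF2 were compared next, since their transcripts bear on the same pathway. Nfe2l2, the NRF2 gene itself, read 4028.8 on WT, 2702.1 on 1SA and 4386.2 on 2SA. It was lower in 1SA than in WT, with a difference of -0.50, and within the spot limit of WT in 2SA, at -0.01, a sign that turned under 3 of the scaling and background alternatives. Nfe2l2 was thus lowest on the array where most members were highest. Keap1 differed by 0.19 in 1SA minus WT, -0.24 in 2SA minus WT and -0.42 in 2SA minus 1SA. Mafg, a small MAF partner of NRF2, gave 0.13, -0.18 and -0.32 in the same comparisons. Sqstm1, the p62 protein that draws KEAP1 into autophagy and is itself an NRF2 target, gave 0.05, 0.07 and 0.02. Of the 12 regulators, 1 passed 1.5-fold in any comparison, namely Bach1. It was higher in 1SA than in WT, beside 3.08% of all genes, and lower in 2SA than in 1SA, beside 4.56%. The medians of the 12 regulators were 0.03, -0.02 and -0.01. NRF2 is controlled mainly through the stability of its protein, which an array does not read.

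Other genes taken as NRF2 targets because they conjugate or export foreign compounds shared the lower level in 2SA. Of 20 measured genes of the 21 on this list, 19 were lower in 2SA than in 1SA and 17 were lower in 2SA than in WT, while 13 were higher in 1SA than in WT. Of all genes measured, 54.4%, 56.4% and 49.7% had these directions, as did 9, 8 and 8 of the 10 hepatocyte markers. After quantile normalisation the counts of the 20 listed genes were 17, 17 and 12, and those of the 10 markers were 6, 6 and 4. Ephx1 and Gstm2 were the listed genes that turned between the mutants. The list medians were 0.14 in 1SA minus WT, -0.28 in 2SA minus WT and -0.54 in 2SA minus 1SA, the last -0.39 after quantile normalisation. The order 1SA above WT above 2SA held for 11 of the 20, for 7 of the 10 hepatocyte markers and for 26.1% of all genes. At 1.5-fold, 1 gene was higher in 1SA than in WT (3.08% of all genes), 4 were lower in 2SA than in WT (3.02%) and 5 were lower in 2SA than in 1SA (4.56%).

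Cbr3, a carbonyl reductase, had the largest difference of that list. It read 5374.9 on WT, 6603.5 on 1SA and 2131.4 on 2SA, with differences of 0.37 in 1SA minus WT, -1.47 in 2SA minus WT and -1.84 in 2SA minus 1SA. Its order was that of Srxn1. The related Cbr1 was lower in 2SA than in WT by a difference of -0.69. The glutathione transferases Gstm3 and Gsta1 differed by -0.81 and -0.72 in 2SA minus WT, and Gstm4 by -0.80 in 2SA minus 1SA. A second Gstm3 probe gave -0.54 in 2SA minus WT, short of 1.5-fold. Probes of glutathione transferases can share signal between near-identical family members. Aox1, aldehyde oxidase, was higher in 1SA than in WT by 0.66, with -0.82 in 2SA minus 1SA. Abcc2, which exports glutathione conjugates into bile, differed by -0.69 in 2SA minus 1SA.

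**Figure D3:**
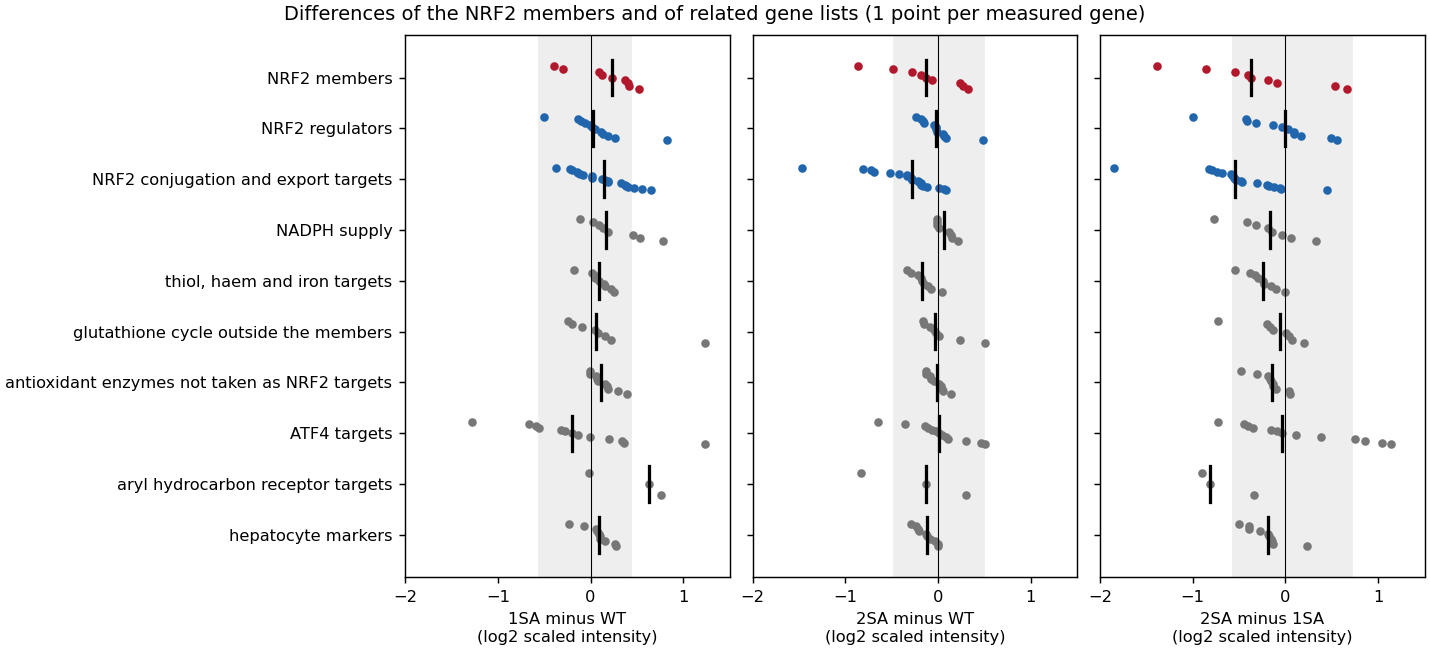
Differences in log2 scaled intensity in the 3 comparisons, 1 point per measured gene, for the members (red), NRF2 regulators and conjugation and export targets (blue), and other lists and hepatocyte markers (grey points). Vertical bars mark each list's median and the grey band spans the 5th to 95th percentile of all 13626 genes, and the members and the conjugation and export targets have medians of -0.37 and -0.54 in 2SA minus 1SA.

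Thiol, haem and iron targets showed the same order with small sizes. This list holds thioredoxin, peroxiredoxins, ferritins and biliverdin reductases. All 9 were lower in 2SA than in 1SA, as were 9 of the 10 hepatocyte markers and 54.4% of all genes. The list median was -0.24, and none passed 1.5-fold, beside 4.56% of all genes lower and 6.99% higher. The order 1SA above WT above 2SA held for 7 of the 9, for 7 of the 10 hepatocyte markers and for 26.1% of all genes. After quantile normalisation 7 of the 9 listed genes were lower and 5 had this order, and the median was -0.12. The list medians against WT were 0.10 in 1SA and -0.18 in 2SA. Beyond the repeated-spot limit, 2 of the 9 were higher in 1SA than in WT (16.0% of all genes) and 3 were lower in 2SA than in WT (19.2%). Between the mutants, 6 were lower in 2SA beyond the limit (24.0%). Txn1, the substrate of Txnrd1, gave 0.05 in 1SA minus WT, -0.10 in 2SA minus WT and -0.15 in 2SA minus 1SA. Prdx1, a peroxiredoxin that Srxn1 repairs, gave 0.23, -0.07 and -0.30. The difference between the mutants was thus larger for Srxn1, the repairing enzyme, than for Prdx1.

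The other enzymes of NADPH supply did not share the order of G6pdx. The medians of the 8 genes were 0.16 in 1SA minus WT, 0.06 in 2SA minus WT and -0.17 in 2SA minus 1SA. Pgd, the dehydrogenase that follows G6pdx in the pathway, gave 0.46, 0.14 and -0.32, opposite in sign to G6pdx in 1SA minus WT and in 2SA minus 1SA. Me1, malic enzyme, was the single gene of this list past 1.5-fold. It gave 0.78 in 1SA minus WT, where 3.08% of all genes were 1.5-fold higher, and -0.77 in 2SA minus 1SA, where 4.56% were 1.5-fold lower. All 3 of the Me1 probes had these directions. Rpia, which was chosen after its values were seen, was the single gene of this list with the order of G6pdx.

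Lists outside the NRF2 targets were described in the same way. The glutathione cycle genes outside the members had medians of 0.06, -0.03 and -0.06 over 8 genes, and all 3 changed sign after quantile normalisation. Gss, which completes glutathione synthesis after Gclc and Gclm, gave -0.20 in 1SA minus WT, -0.16 in 2SA minus WT and 0.04 in 2SA minus 1SA. Antioxidant enzymes that are not taken as NRF2 targets, such as superoxide dismutases and catalase, had medians of 0.11, -0.01 and -0.15 over 10 genes. None of them passed 1.5-fold in any comparison, beside 3.02% to 6.99% of all genes in a given comparison and direction.

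Targets of the stress factor ATF4 were examined because ATF4 also controls Slc7a11. Their medians over 13 genes were -0.20 in 1SA minus WT, 0.01 in 2SA minus WT and -0.03 in 2SA minus 1SA. In 2SA minus 1SA, 6 of the 13 were higher and 7 lower, and 4 were 1.5-fold higher, beside 6.99% of all genes, namely Nupr1 (1.14), Psat1 (1.05), Trib3 (0.85) and Ddit3 (0.75). Nupr1 and Ddit3 were also 1.5-fold lower in 1SA than in WT, with -1.28 and -0.67, beside 4.67% of all genes. Chac1, which degrades glutathione and is on both the ATF4 and the glutathione cycle lists, ran the other way, with 1.23 in 1SA minus WT and -0.72 in 2SA minus 1SA. Asns, asparagine synthetase, gave -0.65 in 2SA minus WT.

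Targets of the aryl hydrocarbon receptor were examined because this receptor also controls Nqo1. Of 5 genes, 3 were measured, and all 3 were lower in 2SA than in 1SA, as were Nqo1 and 54.4% of all genes. With the dim genes kept, 3 of the 5 were lower and 2 were higher. Cyp1a2, a cytochrome P450 of hepatocytes, gave 0.76 in 1SA minus WT, -0.13 in 2SA minus WT and -0.89 in 2SA minus 1SA. Cyp1a1 gave -0.02, -0.83 and -0.81, the first of which turned positive under 3 alternatives, at intensities of 65.5, 61.4 and 40.5 on WT, 1SA and 2SA. Tiparp gave 0.64 in 1SA minus WT, and its second probe gave 0.22. The list medians over these 3 genes were 0.64, -0.13 and -0.81, and with the dim genes kept the first was -0.02 over 5 genes.

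The cell composition of the livers was read from marker lists. The 10 hepatocyte markers summed to scaled levels of 4665 for WT, 5000 for 1SA and 4135 for 2SA, all 10 were measured, and 9 of the 10 were lower in 2SA than in 1SA, with differences down to -0.50 (6 of the 10 after quantile normalisation). Txnrd1, at -0.54, was close to that value and ranged up to -0.46 under the alternative ways of processing, while Srxn1 (-1.39) and Nqo1 (-0.86) were lower. Sinusoidal endothelial markers had medians of 0.03, -0.12 and -0.16 over 6 genes and stellate cell markers -0.18, -0.57 and -0.15 over 5. Bile duct markers were lower in 1SA, with medians of -0.82, -0.06 and 0.82 over 5 genes and summed levels of 13.2, 4.30 and 10.8. Most of each sum came from Spp1 alone, at 3.60 on WT (log2 scaled) beside -1.12 for the next brightest marker. Granulocyte markers gave 0.22, 0.04 and -0.18 over 5 genes, red cell markers 0.86, 0.45 and -0.36 over 7, and lymphocyte markers 0.00, 0.23 and 0.05 over 4. All 5 bile duct markers had the sign of Hmox1 and G6pdx between the mutants. The part of cell composition in the members' values was not tested.

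Signal strength was also considered, since most members were bright. Among 5717 genes in the range of signal that the members spanned, the medians were 0.01 in 1SA minus WT, -0.03 in 2SA minus WT and -0.04 in 2SA minus 1SA. Of these genes, 4.08% were 1.5-fold higher and 3.10% were 1.5-fold lower in 2SA than in 1SA, beside 1 and 2 of the 9 members.

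The members' differences between the mutants were recomputed under 9 alternative ways of processing. The sign was the same in all 9 for every measured member except Osgin1. Srxn1 ranged from -1.41 to -1.29 and Nqo1 from -0.88 to -0.78, both beyond 1.5-fold throughout. Hmox1 ranged from 0.60 to 0.74 and was also beyond 1.5-fold throughout. G6pdx ranged from 0.44 to 0.61 and passed 1.5-fold under 1 alternative, the authors' matrix without further scaling.

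**Figure D4:**
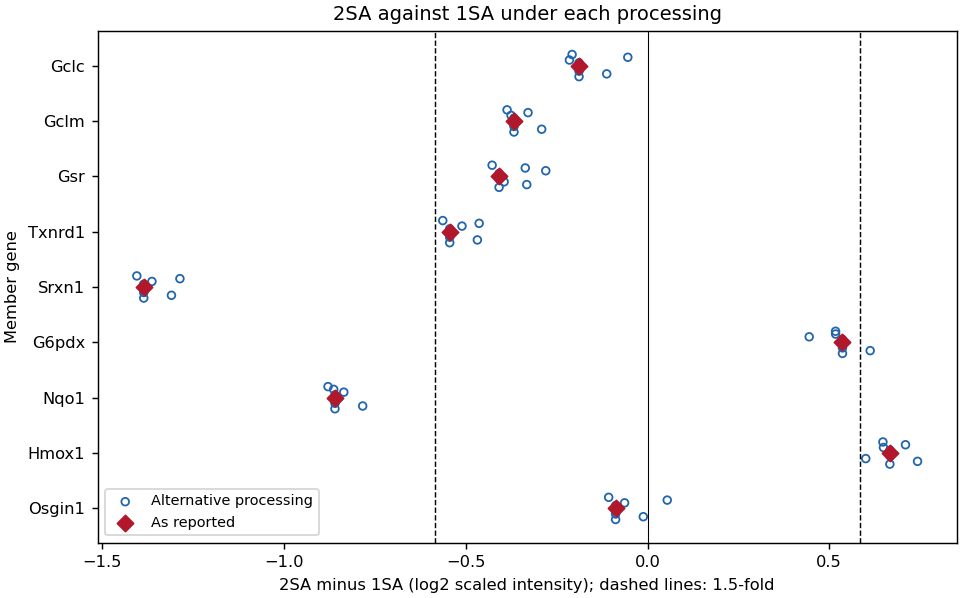
Difference of 2SA from 1SA (log2 scaled intensity) for the 9 measured members, as reported (red diamonds) and under the alternative ways of processing (open circles), with dashed lines at 1.5-fold in either direction. Srxn1, Nqo1 and Hmox1 lie beyond the lines under every processing, and Osgin1 is the member whose circles lie on both sides of 0.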

How the data were processed

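Liver RNA was measured on 3 single-colour Agilent arrays (WT, 1SA and 2SA, 1 each, all on 1 slide). The authors scanned them with Agilent Feature Extraction (version 10.10.1.1 in the headers), and the deposited intensity is background-subtracted and not scaled between arrays. Spots that the scanner software called non-uniform or outliers among repeats were dropped (148 to 182 of 59305 per array) and none was saturated. Intensities were divided by the array's 75th percentile and log2 transformed. A probe was taken as measured when at least 50% of its spots were well above background. RefSeq accessions gave gene names (26762 of 55681 probes), and the brightest probe measured on all 3 arrays stood for a gene. The authors' series matrix held the same intensities multiplied by a constant per array. The RNA was amplified and labelled with Cy3. Precision is limited by 1 array per group and 1 spot per member probe.

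The members, gene lists and thresholds were chosen with earlier results of these data known. Named genes were all members, every listed pathway gene past 1.5-fold in any comparison, and Nfe2l2, Keap1, Bach1, Mafg, Sqstm1, Gss, Pgd, Txn1 and Prdx1. C1qa, C1qb, Slc4a1, Spp1, Ephx1, Gstm2, Rpia and Cps1 were named after their values were seen. The 9 alternatives were scaling to the array median, quantile normalisation, normexp (offset 50, on median spot signal and local background), the matrix with and without scaling to its 75th percentile, no filter or a stricter filter on dim probes, the mean of all probes of a gene, and all spots kept. A 2-fold threshold was tried for counts. Computations used Python 3.11.15, pandas 2.3.3, numpy 2.4.6, matplotlib 3.10.9, R 4.3.3 and limma 3.58.1 and were tested on simulated data.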

Additional observations from a re-analysis of the deposited data

Results flagged for a closer look

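For 4 members 1SA and 2SA lay on opposite sides of WT, each by more than the repeated-spot limit, beside 6.78% of all genes measured. Srxn1 differed by -1.39 between 2SA and 1SA, and Nqo1 by -0.86, both higher than WT in 1SA and lower in 2SA. Hmox1 differed by 0.67 and G6pdx by 0.54, both lower than WT in 1SA and higher in 2SA. Under normexp the difference of G6pdx in 2SA minus WT was 0.19, within that limit. The difference between the mutants was not tested, because each group held 1 array.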

How the results depend on the processing

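At a 2-fold threshold in place of 1.5-fold, the count of members lower in 2SA than in WT went to 0, that of members higher in 2SA than in 1SA to 0 and that of members lower in 2SA than in 1SA to 1, by construction of the stricter threshold. With the authors' matrix as deposited, an alternative chosen after seeing the data, 2 members were 1.5-fold higher in 2SA than in 1SA (Hmox1 and G6pdx). The other counts at 1.5-fold and the 3 medians of the members kept their direction under the 9 alternatives run. Of the members' calls beyond the repeated-spot limit, Gsr in 1SA minus WT was lost under quantile normalisation, normexp and the matrix as deposited, and G6pdx in 2SA minus WT under normexp, where Gclc in 2SA minus 1SA (-0.21) was gained. Among single members, Gsr in 2SA minus 1SA moved to -0.28 under normexp, and after quantile normalisation Gclc moved to -0.05 and Osgin1 to 0.05. The cause was not tested. After quantile normalisation the median of the conjugation and export targets in 2SA minus 1SA was -0.39. Medians near 0 of the regulators, the ATF4 targets and the antioxidant enzymes outside the NRF2 targets changed sign under some alternatives. Dividing the matrix by its 75th percentile gave the same values as the scanner files by construction. The median of all genes moved by less than 0.1 under each alternative. No paired analysis was possible because there was a single array in every group. The slide was not fitted as a block, since all arrays were on 1 slide. Leaving out an array was not possible either. The limits are 1 array per group, 1 spot per member probe, and livers in which a part of the cells carried YAP.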
